A study of Mus musculus with 4 samples.

Results

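RNA of alveolar and airway epithelium was read in all 4 libraries of sorted lung endothelial cells, through 36 marker genes that were taken by symbol from the 17915 coding genes of the deposited table. The 36 genes comprise 10 markers of alveolar type 2 cells, 4 of alveolar type 1 cells, 14 general epithelial genes, 6 club and secretory genes and 2 genes of ciliated cells. Every one of the 36 symbols has a row, and 33 genes had a count in each of the 4 libraries. The study asked how endothelial cells that had switched on alpha smooth muscle actin (aSMA) differ from those that had not, in mice with transverse aortic constriction (TAC), a narrowing of the aorta.

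Both groups carried the genotype Cdh5-CreER;aSMA-LSL-Dre;NR1, had tamoxifen 5 times and were taken 6 weeks after TAC, so no group without the constriction is among the libraries. The Cdh5 promoter drives the inducible recombinase in endothelium, where a reporter turns cells ZsGreen+ and, once aSMA has been active, even briefly, tdTomato+. Each colour has 2 libraries, labelled as biological replicates. The labels give neither age nor sex, nor whether a replicate was 1 mouse or a pool, and p-values here reflect only how far these libraries spread, which may be technical. Total counts over coding genes ran from 17050673 to 18574737 per library. A list of 10 endothelial markers (among them Cdh5 and Pecam1) summed to between 7722.2 and 8681.8 TPM, a transcript's share of all transcripts in parts per 1e6 and so a level scaled for transcript length. The 36 epithelial genes summed to 1913.5 and 1684.1 TPM in tdTomato+ replicates 1 and 2 and to 1053.9 and 2622.4 TPM in ZsGreen+ replicates 1 and 2.

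As background, the alveolar surface is covered by flat type 1 cells, across which gas is exchanged, and by cuboidal type 2 cells, which make and recycle surfactant and can renew type 1 cells. Airways are lined mainly by club cells, which secrete secretoglobins, and by ciliated cells. Epithelial cells lie against the capillary endothelium, are not its progeny, and make surfactant and secretoglobin transcripts in great abundance. The driver Cdh5 is not an epithelial gene.

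Sftpc, Scgb1a1 and Lyz1 carried most of the summed level of the 36 genes, though Lyz1 is uncertain as an epithelial marker here, as given below. Sftpc, the type 2 cell surfactant protein C, Scgb1a1, the main secretoglobin of club cells, and Lyz1, a secreted lysozyme, together made up 79.3% and 73.5% of the summed TPM of the 36 genes in tdTomato+ replicates 1 and 2. In ZsGreen+ replicates 1 and 2 they made up 64.6% and 89%. Which of them led differed by library. Sftpc held 34.6%, 41.6% and 32.3% of the sum in both tdTomato+ libraries and ZsGreen+ replicate 1 in turn, but 6.53% in ZsGreen+ replicate 2, where Scgb1a1 held 80%.

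**Figure D1:**
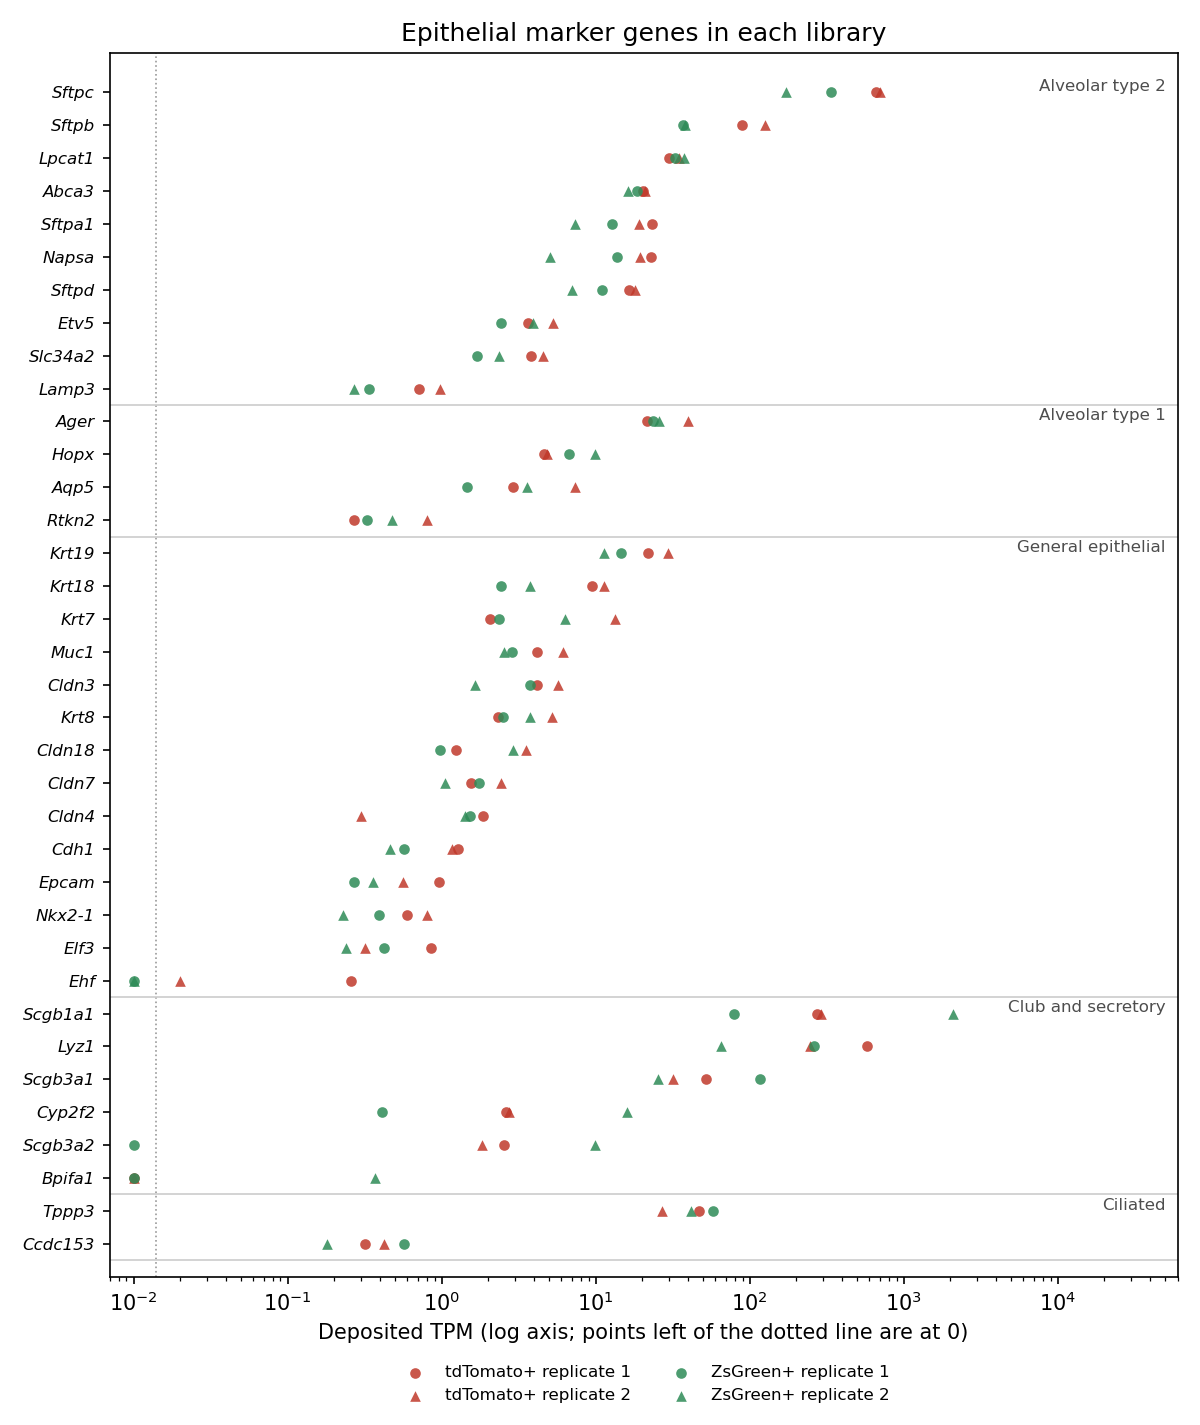
Deposited TPM (log axis) of the 36 epithelial marker genes, grouped by cell type and ordered by mean level, with 1 point per library and points left of the dotted line at 0. Sftpc lies between 171.4 and 700.5 TPM with both tdTomato+ points on the right, while the points of Scgb1a1 run from 79.1 to 2098 TPM, both ends being ZsGreen+ libraries.

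Surfactant and other type 2 cell genes stood higher in the tdTomato+ libraries. Summed over the 10 type 2 markers the level was 871.4 and 949.5 TPM in tdTomato+ cells, 910.4 ± 55.3 (SD, n = 2), against 470.5 and 289.8 TPM in ZsGreen+ cells, 380.1 ± 127.8 (SD, n = 2). The groups do not overlap on this sum, whose ratio of means was 2.4. All 10 genes passed the filter on low counts, and their median log2 fold change, tdTomato+ over ZsGreen+, was 0.89, beside -0.01 over all 13177 genes tested. The ratio leaned on Sftpc: the log2 ratio of the sums was 1.3 with it and 0.88 without it. Here and below, a log2 ratio of sums is the difference between the group means of the log2 sums. It is not the log2 of the ratio of means.

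None of the 10 was called by edgeR's quasi-likelihood test with Benjamini-Hochberg adjustment over all genes, and the same held for the 32 epithelial members tested, where 0.304% of all genes were called (40 of 13177). At an unadjusted edgeR p under 0.05, 6 of the 32 members lay higher in tdTomato+ cells and none lower. These were Sftpb, Sftpc, Slc34a2, Sftpa1, Krt18 and Krt19, and the shares over all genes were 5.62% higher and 3.15% lower. DESeq2 called 3 of the 32, all higher, beside 1.56% of all genes called higher. Those 3 were Sftpb (DESeq2 adjusted p = 0.000192), Krt18 (0.045) and Sftpc (0.0464). On TMM-scaled counts (CPM, counts per 1e6), both tdTomato+ libraries lay above both ZsGreen+ libraries in 13 of the 32 members and below them in 2, beside 19.9% and 18.2% of all genes tested.

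Sftpb encodes surfactant protein B, a small hydrophobic protein that type 2 cells need to spread surfactant. It stood at 88.7 and 125.8 TPM in tdTomato+ cells and at 37 and 38.3 TPM in ZsGreen+ cells. Both tdTomato+ libraries lay above both ZsGreen+ libraries, and the ZsGreen+ pair hardly differed. Its log2 fold change reached 1.36 (SE 0.24) with an edgeR adjusted p of 0.114, the lowest adjusted p among the members. It was 1.06 without tdTomato+ replicate 2 and 1.46 without ZsGreen+ replicate 1. In these and every other fit that leaves out a library, 1 group holds a single library, which is assumed to vary like the pair of the other group. A gene's own spread then comes from that pair alone and is combined with the spread of all genes. No p of a single gene is therefore given for such fits, and counts of calls from them rest on the same assumption. Promoter windows of Sftpb and of Sftpa1, the collectin surfactant protein A, are shown because both genes were among the type 2 markers with a low p and both windows hold the letters CTCAAG, a form of the core bound by NKX2-1, the lung epithelial regulator that is itself a member. Each runs from 250 bases before to 50 after the RefSeq start (GRCm38.p6), on the plus strand, with the matches in capitals. Sftpb lies at chr6:72304360-72304659 and Sftpa1 at chr14:41131538-41131837.

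Sftpb: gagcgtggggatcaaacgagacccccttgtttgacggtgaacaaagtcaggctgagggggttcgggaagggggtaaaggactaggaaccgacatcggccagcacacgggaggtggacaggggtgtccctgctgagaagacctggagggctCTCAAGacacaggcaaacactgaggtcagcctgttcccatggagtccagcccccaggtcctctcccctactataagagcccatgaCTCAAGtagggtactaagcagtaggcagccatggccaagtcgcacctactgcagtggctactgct
Sftpa1: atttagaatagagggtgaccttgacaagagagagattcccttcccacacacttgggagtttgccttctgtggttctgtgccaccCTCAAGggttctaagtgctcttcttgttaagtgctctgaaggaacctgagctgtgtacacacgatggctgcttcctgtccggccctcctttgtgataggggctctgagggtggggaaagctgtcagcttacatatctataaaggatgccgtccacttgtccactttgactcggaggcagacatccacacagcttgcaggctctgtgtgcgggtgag

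The first bases of the matches lie at positions -100 and -15 of Sftpb and at -166 of Sftpa1, counted from the start. CTCAAG, or CTTGAG for the other strand, was found in 8 of 30 windows of the 26 members listed in the promoter table. That is 26.7%, against 15.9% of all 32851 windows of the same length. The 7 member genes with a match include Scgb3a1, Muc1 and Hopx. Sftpc and Slc34a2, the other type 2 markers with an unadjusted edgeR p under 0.05, are not among the 7. Members without a listed promoter could not be searched. A match describes the letters only and is not a measured site.

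Sftpc, the most abundant type 2 marker (chr14:70520941-70524081, GRCm38), stood at 661.8 and 700.5 TPM in tdTomato+ cells and at 340.1 and 171.4 TPM in ZsGreen+ cells. It ranked 270 and 257 among the 17915 genes in tdTomato+ libraries and 490 and 1002 in ZsGreen+ libraries. Both ZsGreen+ libraries were lower, and they differed from each other by 1.98-fold. Its log2 fold change came to 1.21 (SE 0.38, edgeR adjusted p = 0.374). It was 1.96 without ZsGreen+ replicate 1, leaving the lower ZsGreen+ library, and 0.71 without ZsGreen+ replicate 2.

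The other surfactant genes also stood higher in tdTomato+ cells. Sftpa1 stood at 23.1 and 19.1 TPM against 12.7 and 7.39 TPM (log2 fold change 0.88, SE 0.34). Sftpd, surfactant protein D, stood at 16.4 and 18.1 TPM against 11 and 7.08 TPM (0.74, SE 0.37). Napsa, the aspartic protease that processes surfactant protein B, stood at 22.9 and 19.4 TPM against 13.7 and 5.06 TPM (0.96, SE 0.51). In each of these genes both tdTomato+ libraries lay above both ZsGreen+ libraries, with ZsGreen+ replicate 2 the lowest. Slc34a2, the phosphate carrier of type 2 cells, stood at 3.8 and 4.57 TPM against 1.71 and 2.37 TPM (0.91, SE 0.32), with ZsGreen+ replicate 1 the lowest. Lamp3, a lamellar body protein also known from mature dendritic cells, did not overlap either, with 25 and 38 estimated counts against 13.03 and 10 (1.3, SE 0.66). Without ZsGreen+ replicate 1, where their lowest library alone stood for ZsGreen+ cells, Sftpa1 and Napsa had log2 fold changes of 1.48 and 2.03. Without ZsGreen+ replicate 2 they had 0.45 and 0.35.

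Abca3, Lpcat1 and Etv5 did not follow the surfactant genes. Abca3, the lipid pump of lamellar bodies, stood at 20.3 and 21.1 TPM in tdTomato+ cells and at 18.7 and 16.3 TPM in ZsGreen+ cells (log2 fold change 0.08, SE 0.20). Lpcat1, which makes surfactant phosphatidylcholine, stood at 30 and 34.8 TPM against 32.9 and 37.6 TPM (-0.27, SE 0.18). Etv5, a transcription factor that maintains type 2 cells, stood at 3.62 and 5.26 TPM against 2.43 and 3.91 TPM (0.37, SE 0.36). Abca3 and Lpcat1 were nearly level over the 4 libraries. As a ratio of counts, Sftpc per Abca3 was 3.2 and 3.31 in tdTomato+ libraries and 1.83 and 1.04 in ZsGreen+ libraries, whereas Sftpc per Sftpa1 was 6.81 and 8.82 against 6.49 and 5.55. These ratios compare counts within a library and do not correct for gene length.

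**Figure D2:**
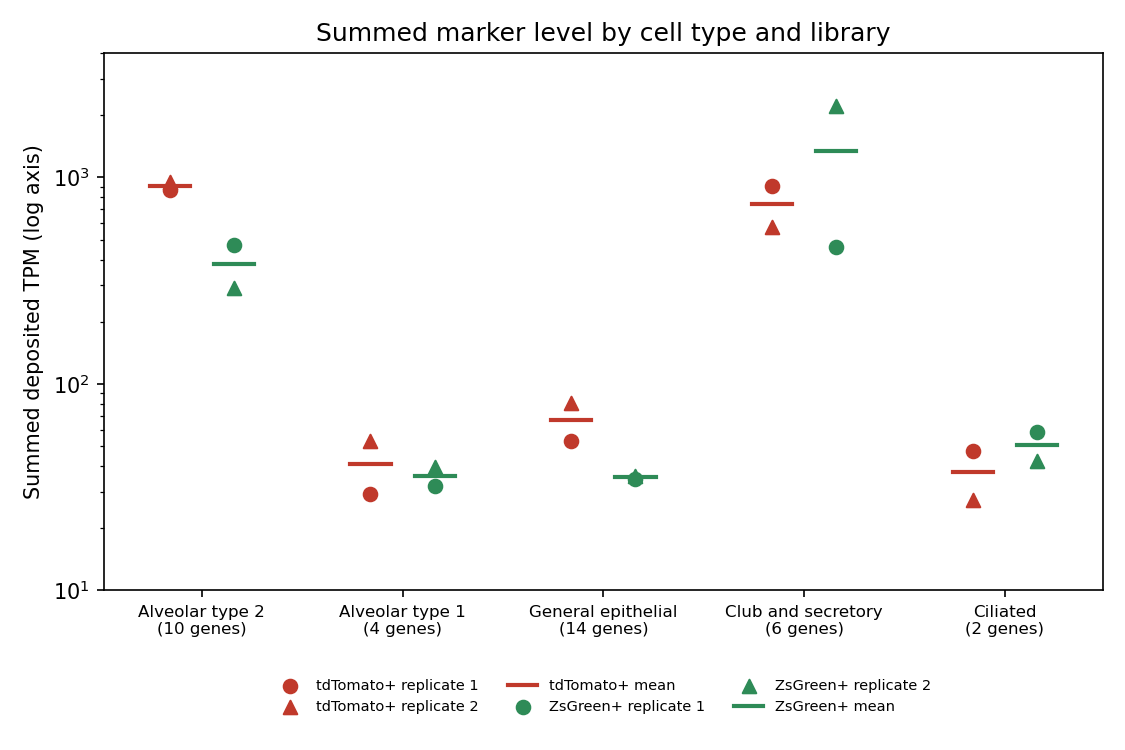
Summed deposited TPM (log axis) of each marker list in each library, with a bar at each group's mean of 2 libraries. The type 2 sums are 871.4 and 949.5 TPM in tdTomato+ and 470.5 and 289.8 TPM in ZsGreen+ libraries without overlap, while the club and secretory sums of the ZsGreen+ libraries, 458.2 and 2214.8 TPM, enclose both tdTomato+ values.

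Type 1 cell genes showed no common direction. Their 4 members summed to 29.3 and 52.9 TPM in tdTomato+ cells and 32.1 and 39.7 TPM in ZsGreen+ cells, with overlap. Ager, the receptor RAGE and the most abundant of them, stood at 21.6 and 39.9 TPM against 23.5 and 25.7 TPM, where tdTomato+ replicate 2 alone stood apart (log2 fold change 0.17, SE 0.33). Hopx, a homeodomain cofactor, was the single type 1 marker with both ZsGreen+ libraries above both tdTomato+ libraries, at 6.73 and 9.91 TPM against 4.63 and 4.87 TPM. The fit gave -0.91 (SE 0.41) on the log2 scale, with an edgeR adjusted p of 0.598. Aqp5, a water channel, stood at 2.89 and 7.37 TPM against 1.46 and 3.61 TPM, replicate 2 being the higher in each group (0.92, SE 0.64). Rtkn2, also expressed in lymphocytes, was at or under 0.81 TPM throughout. The median log2 fold change of the 4 was 0.25. It was 0.74 without tdTomato+ replicate 1 and turned to -0.53 without tdTomato+ replicate 2.

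General epithelial genes stood higher in tdTomato+ cells as a sum, at 52.7 and 80.4 TPM against 34.5 and 36 TPM. Of the 14, 12 were tested and 11 had a positive log2 fold change, beside 49.3% of all genes tested. Their median was 0.76. On CPM, 6 of the 12 did not overlap, all with tdTomato+ above, beside 19.9% of all genes with tdTomato+ above and 18.2% with ZsGreen+ above. The keratins held most of the sum. Krt19, which builds the filaments of simple epithelia, stood at 21.9 and 29.6 TPM against 14.6 and 11.4 TPM (0.86, SE 0.30, edgeR adjusted p = 0.453). Krt18 stood at 9.53 and 11.3 TPM against 2.45 and 3.78 TPM (1.60, SE 0.39, edgeR adjusted p = 0.228), the highest positive log2 fold change among the members tested. Krt8, the partner with which keratin 18 forms filaments, overlapped between the groups: it stood at 2.32 and 5.21 TPM against 2.51 and 3.73 TPM (0.15, SE 0.53). Krt7 stood at 2.05 and 13.4 TPM against 2.37 and 6.31 TPM, a 6.53-fold difference between the tdTomato+ replicates (0.75, SE 0.84).

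The general epithelial genes other than keratins lay low, at or under 6.12 TPM in every library. Epcam, an adhesion molecule of nearly all epithelia, stood at 20 and 13 counts in tdTomato+ libraries and 6 and 8 in ZsGreen+ libraries, 0.96, 0.56, 0.27 and 0.36 TPM in turn. Cdh1, E-cadherin, stood at 1.27 and 1.17 TPM against 0.57 and 0.46 TPM (1.07, SE 0.51), and Nkx2-1 at 0.6 and 0.8 TPM against 0.39 and 0.23 TPM (0.99, SE 0.76). None of these 3 overlapped between groups on CPM, all with tdTomato+ above, and none was called. Over all genes tested, 19.9% had tdTomato+ above and 18.2% had ZsGreen+ above. Muc1, a membrane mucin, stood at 4.18 and 6.12 TPM against 2.87 and 2.56 TPM (0.77, SE 0.41). Among the claudins, which seal tight junctions, Cldn3 stood at 4.16 and 5.72 TPM against 3.76 and 1.66 TPM, Cldn18 at 1.25 and 3.52 TPM against 0.97 and 2.89 TPM, and Cldn7 at 1.56 and 2.42 TPM against 1.74 and 1.05 TPM. Cldn4 had the single negative value of the list, at 1.87 and 0.3 TPM against 1.53 and 1.41 TPM (-0.63, SE 0.86). The epithelial transcription factors Elf3, with 18 and 7 against 9 and 5 counts, and Ehf, with 12 and 1 against 0 and 0 counts, did not pass the filter. A count of 0 allows up to 0.19 CPM in ZsGreen+ replicate 1 and 0.164 CPM in ZsGreen+ replicate 2, covering counting error only.

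**Figure D3:**
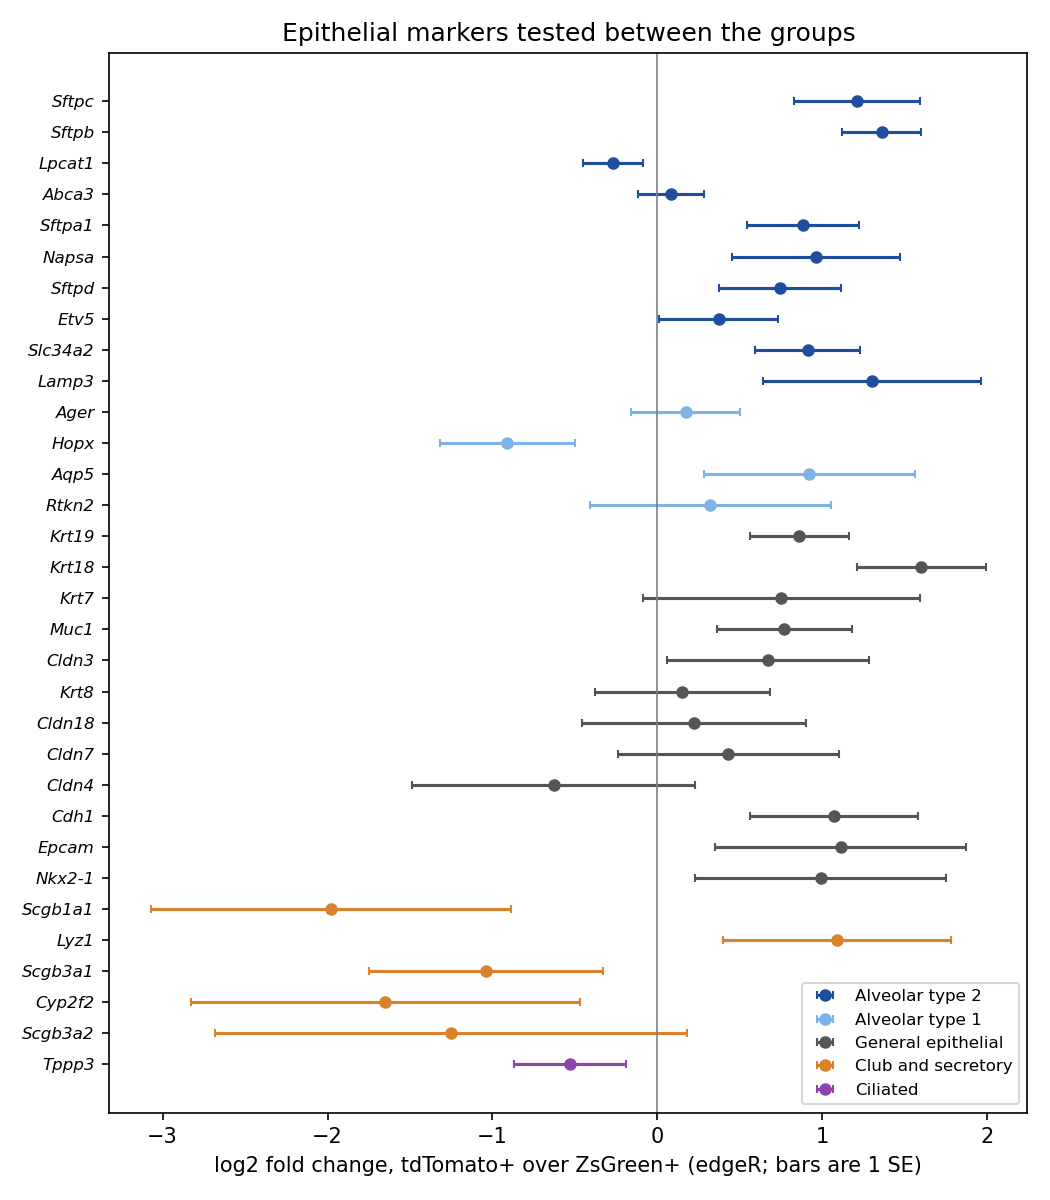
log2 fold change, tdTomato+ over ZsGreen+, of the 32 members tested, with bars of 1 SE and colours by cell type. Type 2 and general epithelial genes lie mostly right of 0, Lyz1 lies at 1.09, and the other club and secretory genes lie left of 0 with SEs from 0.71 to 1.43.

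Club cell genes differed more between the ZsGreen+ replicates than between the tdTomato+ replicates. Scgb1a1 (chr19:9083642-9087956, GRCm38) stood at 275.8 and 292.5 TPM in tdTomato+ cells and at 79.1 and 2098 TPM in ZsGreen+ cells. The tdTomato+ replicates were within 1.06-fold of each other, and the ZsGreen+ replicates differed by 26.5-fold, with 280 and 7009 counts. In ZsGreen+ replicate 2 it ranked 56 among all 17915 genes, against 1822 in ZsGreen+ replicate 1. Cyp2f2, the cytochrome P450 typical of club cells, had the same order, at 2.63 and 2.73 TPM against 0.41 and 15.9 TPM, a 38.8-fold difference between the ZsGreen+ replicates. Scgb3a2, another secretoglobin of the airway, stood at 10 and 8 counts against 0 and 42. In these 3 genes both tdTomato+ libraries lay between the ZsGreen+ libraries.

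Over the 12404 genes averaging 1 CPM or more, Scgb1a1 ranked 4 and Cyp2f2 ranked 7 by the size of the difference between the ZsGreen+ replicates, at 4.40 and 4.10 on the log2 scale. The median absolute difference over these genes was 0.32. In tdTomato+ libraries the same differences were 0.19 and 0.11. Of the 15 genes with the largest ZsGreen+ replicate difference, 13 differed by over 1 log2 unit in the same direction between the tdTomato+ replicates, among them the clock genes Nr1d1 (4.37 and 4.19) and Dbp (4.07 and 4.01). The other two were Scgb1a1 and Cyp2f2.

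Scgb3a1, a secretoglobin of larger airways, ran the other way, at 52.5 and 31.6 TPM against 117.5 and 25.5 TPM, so ZsGreen+ replicate 1 was the highest and ZsGreen+ replicate 2 the lowest. Counts of Scgb1a1 per count of Scgb3a1 were 4.55 and 8.03 in tdTomato+ libraries, 0.589 in ZsGreen+ replicate 1 and 70.8 in ZsGreen+ replicate 2. Scgb1a1 and Scgb3a1 thus kept no fixed ratio over the libraries. Counts of Scgb1a1 per count of Cyp2f2 varied less, at 18 and 18.8 in tdTomato+ libraries. They were 35 in ZsGreen+ replicate 1, where Cyp2f2 had 8 counts, and 22.9 in ZsGreen+ replicate 2. Log2 fold changes were -1.98 (SE 1.09) for Scgb1a1, -1.65 (SE 1.18) for Cyp2f2, -1.25 (SE 1.43) for Scgb3a2 and -1.04 (SE 0.71) for Scgb3a1, with edgeR adjusted p from 0.729 to 0.895. Without ZsGreen+ replicate 1 the values were -2.91 for Scgb1a1 and -2.59 for Cyp2f2, against the single ZsGreen+ library in which both genes were highest. Without ZsGreen+ replicate 2 their values turned to 1.52 and 2.43. The median of the 5 list members tested was -1.25, and without ZsGreen+ replicate 2 it turned to 1.52. Bpifa1, a secreted protein of upper airways, had 4 counts in ZsGreen+ replicate 2 and 0 elsewhere.

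**Figure D4:**
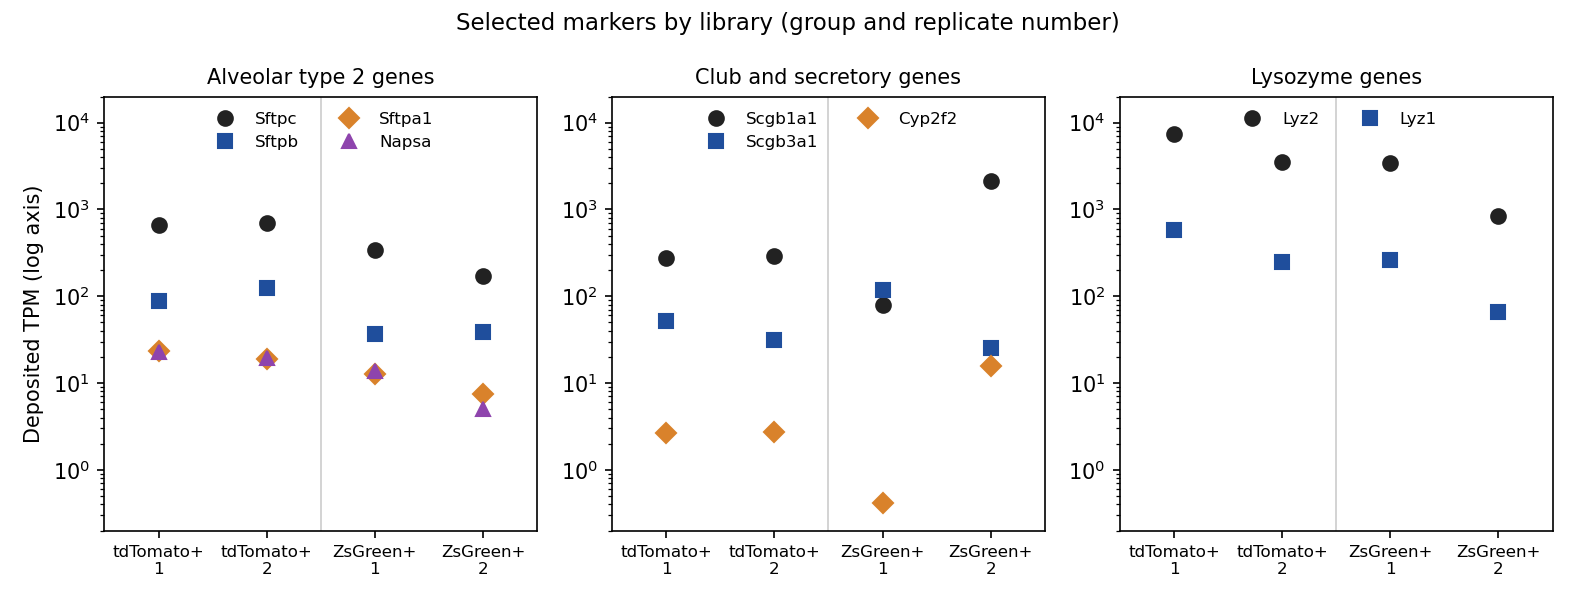
Deposited TPM (log axis) of selected type 2, club and lysozyme genes in the 4 libraries, named by group and replicate number. Scgb1a1 and Cyp2f2 peak in ZsGreen+ replicate 2 at 2098 and 15.9 TPM, where Sftpc, Napsa and both lysozyme genes are at their lowest.

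Lyz1 followed its neighbour Lyz2 and not the club cell genes. Lyz1 is the lysozyme of secretory epithelium and Lyz2 that of macrophages, though type 2 cells also make Lyz2. Lyz1 stood at 579 and 245.1 TPM in tdTomato+ cells and 261.3 and 65 TPM in ZsGreen+ cells, and Lyz2 at 7396.7 and 3481.8 against 3388.7 and 834.6 TPM. Lyz1 made up 8.84% of the summed counts of both genes in tdTomato+ replicate 1 (Wilson 95% interval 8.65% to 9.04%) and 8.01% (7.75% to 8.28%) in tdTomato+ replicate 2. In ZsGreen+ replicates 1 and 2 it made up 8.69% (8.42% to 8.98%) and 8.8% (8.24% to 9.39%). These intervals cover counting error only. The share thus stayed between 8.01% and 8.84% while Lyz1 itself ranged from 65 to 579 TPM.

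The coding sequences of the pair, from GENCODE transcripts on GRCm38, are 95% identical, with 22 differences in 444 bases and an identical run of 118 bases. The 120 coding bases with the most differences, 37 to 156, are shown since reads of the coding sequences can best be told apart there. Parts of the transcripts outside the coding sequence were not compared. Capitals mark the 14 bases that differ. They lie on the minus strand within chr10:117291174-117292802 for Lyz1 and chr10:117280786-117282206 for Lyz2, spans that include an intron.

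Lyz1: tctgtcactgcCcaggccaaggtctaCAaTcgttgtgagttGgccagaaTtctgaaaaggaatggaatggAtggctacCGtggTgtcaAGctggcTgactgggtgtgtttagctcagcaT
Lyz2: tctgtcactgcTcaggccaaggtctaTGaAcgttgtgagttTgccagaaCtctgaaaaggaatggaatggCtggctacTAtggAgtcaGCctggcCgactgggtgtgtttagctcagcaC

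Both genes have fractional estimated counts in the table, and how many Lyz1 counts came from Lyz2 transcripts was not tested. Lyz1 is therefore uncertain as an epithelial marker here. Without it the club and secretory list had a median of -1.45 over its 4 tested genes on the log2 scale, against -1.25 with it. The log2 ratio of the list's summed TPM was -0.48 with all 6 genes and -0.97 without Lyz1, and 1.01 without Scgb1a1. As a difference of mean log2 sums, it differs from the ratio of means, which was 0.556 with all 6 genes.

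Ciliated cell genes gave little signal beyond Tppp3. Ccdc153, a gene of motile cilia, had 2 and 3 counts in tdTomato+ and 4 and 2 in ZsGreen+ libraries. Tppp3, a tubulin polymerisation protein found in ciliated cells and in some other lung cells, stood at 47.2 and 27.1 TPM against 58.1 and 41.9 TPM, with overlap (-0.53, SE 0.34). The wide gap between the genes was seen in every library.

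Further epithelial genes, from 4 lists beside the members, were read in the same fit. Of 92 such genes in the table, 55 were tested, and edgeR called 1 higher and none lower, beside 0.304% of all genes called. DESeq2 called 4 higher and 2 lower, beside 1.56% and 0.949% of all genes. Spint2, a Kunitz-type protease inhibitor of epithelia, was the gene called by edgeR, at 80 and 80.6 TPM against 17.5 and 15.2 TPM (2.13, SE 0.23, edgeR adjusted p = 0.0304). Its epithelial relative Spint1 stood at 6.11 and 1.59 TPM against 3.5 and 0.28 TPM (0.72, SE 1.09). At an unadjusted edgeR p under 0.05, 11 of the 55 lay higher and 3 lower, beside 5.62% and 3.15% of all genes.

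Among 13 further type 2 genes tested, 10 had a positive log2 fold change, beside 49.3% of all genes tested. The median of the 13 was 0.98. Ctsh, the cathepsin that processes surfactant proteins and is also made by macrophages, stood at 194.6 and 251.8 TPM against 63 and 46.6 TPM (1.86, SE 0.28, edgeR adjusted p = 0.0768, DESeq2 adjusted p = 1.57e-07). Cxcl15, the chemokine lungkine of lung epithelium, stood at 5.72 and 10.2 TPM against 2.65 and 2.36 TPM (1.51, SE 0.43), Dram1 had 0.98 (SE 0.27) and Cebpa, also a myeloid transcription factor, 1.24 (SE 0.49). On CPM, 8 of the 13 had both tdTomato+ libraries above both ZsGreen+ libraries and 0 had them below, beside 19.9% and 18.2% of all genes. The 4 named are among these 8, and were picked for a small p, which favours groups that do not overlap.

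Further type 1 genes went both ways, with a median of 0.22 over 14 tested. Pdpn, podoplanin, which also marks lymphatic endothelium, stood at 15.2 and 6.43 TPM against 37.7 and 40.3 TPM (-2.03, SE 0.37, edgeR adjusted p = 0.127, DESeq2 adjusted p = 4.05e-05). Clic5 (-1.20, SE 0.32, DESeq2 adjusted p = 0.0198) and Emp2 (-0.68, SE 0.18) lay on the same side, and Spock2, a proteoglycan, on the other (1.82, SE 0.62). Of 32 further airway genes in the table, 13 were tested. Chad, chondroadherin, had 2.82 (SE 0.50, DESeq2 adjusted p = 0.00012) and Chga, chromogranin A of neuroendocrine cells, stood at 4.94 and 13.7 TPM against 0.91 and 0.79 TPM (3.30, SE 0.62, edgeR adjusted p = 0.129, DESeq2 adjusted p = 8.44e-05). Cbr2 (0.52, SE 0.43) and Sec14l3 (0.81, SE 0.78) overlapped between the groups. Krt5, Krt15 and Trp63, which define basal cells, and the mucin Muc5b had 0 counts in every library, which allows at most 0.157 to 0.19 CPM. Of further general epithelial genes, Perp had 1.70 (SE 0.60), St14 0.95 (SE 0.60) and Sox9 -0.82 (SE 0.76), and none of these 3 passed with edgeR or DESeq2.

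Macrophage, leukocyte, fibroblast and mural markers also had higher mean levels in tdTomato+ cells. EdgeR called none of them, and DESeq2 called Itgam, Plet1, Krt79 and Col1a1 higher, beside 1.56% of all genes called higher. The 8 alveolar macrophage markers, all detected in all libraries, summed to 1630.3 and 576.3 TPM in tdTomato+ cells and 626.5 and 141 TPM in ZsGreen+ cells, with overlap. The 8 general leukocyte markers, again all detected, summed to 8653.7 and 4335.9 against 4211 and 1388.3 TPM, most of it Lyz2. The 8 fibroblast and mural markers, also all detected, summed to 44.8 and 81.5 against 18.4 and 28.8 TPM. Each of the genes on these 3 lists had a positive log2 fold change, beside 49.3% of all genes tested. The 4 erythroid and platelet markers went the other way, all with a negative log2 fold change (median -0.31), and summed to 115 and 153.8 against 151.1 and 178.3 TPM, with overlap. Among 4 mesothelial markers Wt1 was at 0 in 3 libraries, and the sum ran from 1.25 to 5.78 TPM. The endothelial sum was slightly lower in tdTomato+ cells, at 7869.8 and 7722.2 against 8681.8 and 8671.7 TPM, so type 2 transcripts per 1000 TPM of endothelial markers were 110.7 and 123.0 against 54.2 and 33.4 TPM. Of the 10 endothelial markers, 8 had a negative log2 fold change and edgeR called none. DESeq2 called Cldn5 among them lower (-0.84, SE 0.22, DESeq2 adjusted p = 0.0123), beside 0.949% of all genes. The part of these other cells' RNA in the epithelial values was not tested. Fewer cells of a type and less RNA per cell cannot be told apart in bulk libraries.

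The macrophage, leukocyte and type 2 sums shared their lowest library, ZsGreen+ replicate 2, which was the highest for Scgb1a1, Cyp2f2 and Scgb3a2. They did not share their highest: the macrophage sum of tdTomato+ replicate 1 was 2.83-fold that of tdTomato+ replicate 2, while the type 2 sums of these libraries were within 1.09-fold. In 21 of the 32 members tested the larger difference between replicates exceeded the difference between the group means on log2 CPM.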

How the data were processed

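RNA from the sorted cells of mouse lung was isolated with RNeasy Micro and, from a small volume, pre-amplified with a whole-transcriptome kit before library construction, per the labels' protocols. Amplification may widen the spread; no molecular identifier is mentioned, so a count is not a molecule. RSEM 1.3.1 and DESeq2 1.4.5, with mm10 (GRCm38), are named in the submitters' processing notes. For the aligner, read length and strand setting: not given in the sources used here. Per the file headers, the authors deposited estimated counts, not whole in 16.2% to 17.9% of values, TPM, FPKM and normalized counts (a signal scaled by library). FPKM and the deposited normalized signal were not used. Chromosome accessions are those of GRCm38. Of the 36 members, 36 matched RefSeq by gene identifier and 26 had the same span. The table places 4 members on alternate scaffolds, so printed spans come from RefSeq.

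Estimated counts were rounded and compared with edgeR 4.0.16 (R 4.3.3): quasi-likelihood F-test, two-sided, TMM, filterByExpr with a minimum count of 10, leaving 13177 genes. A call needs a Benjamini-Hochberg adjusted p below 0.05. Each SE is the size of the log2 fold change divided by the root of its F. Common dispersion gave a biological coefficient of variation of 26.1%. For 2 against 2 libraries an exact two-sided permutation p cannot go below 0.333, so none is given. Libraries were grouped by sample title. The deposited TPM served for levels, as sums per list, without a test. Scaling by TPM shifted the median of all genes by 0.124 (log2 of TPM plus 1), against -0.01 in edgeR. The code was tested on simulated data. Members and lists were chosen with earlier results of these data known. All members are accounted for: those at a mean of 1 TPM or more have each library's value, and up to 4 genes with the smallest p and at least 1 TPM are named per further list. Spint1 is named outside this rule, after its values were seen, as are Nr1d1 and Dbp, the other cell types' genes that DESeq2 called, and Krt5, Krt15, Trp63 and Muc5b, which had no counts. Some members below 1 TPM are given by count. Also tried were DESeq2 1.42.0, RLE and upper quartile factors, no filter, a 1 CPM filter, leaving out each library, a replicate block and limma 3.58.1 on log2 TPM. Figures were drawn with matplotlib 3.10.9.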

Additional observations from a re-analysis of the deposited data

How the results depend on the processing

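No member of 32 was called by edgeR, and this held with RLE and upper quartile factors, the 1 CPM filter and limma on log2 TPM plus 1 or 0.1. DESeq2 called 3, edgeR without a filter 1 (Sftpb). The count over leaving out single libraries ran from 0 to 7, the 7 being without ZsGreen+ replicate 1 (5 higher, 2 lower). Over all genes the count was 40, against 330 with DESeq2, 128 without a filter, 18 and 23 with limma on log2 TPM plus 1 and plus 0.1, and 4 (without tdTomato+ replicate 2) to 304 (without ZsGreen+ replicate 1) without single libraries. The same replicate numbers do not show that libraries share mice, yet deviations of same-numbered libraries from their group means correlated at 0.467 over 13177 genes. With the replicate block edgeR called 934 genes, 679 higher and 255 lower, and 7 members, all higher: Sftpb, Sftpc, Sftpa1, Napsa, Lyz1, Krt18 and Krt19.

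The type 2 median of 0.89 ranged from 0.53 to 1.36 without single libraries. The log2 ratio of the type 2 sums, 1.3 by TPM, was 0.75 by CPM, which weights long genes such as Abca3 more, and 0.88 without Sftpc. It ranged from 0.95 to 1.65 without single libraries. The type 1 median ranged from -0.53 to 0.74, and the general epithelial log2 ratio of 0.89 from 0.58 to 1.19. The club and secretory median of -1.25 ranged from -2.23 to 1.52 without single libraries and was -0.64 with the replicate block, -0.41 with log2 TPM plus 1 and -0.04 with log2 TPM plus 0.1. The cause was not tested. The log2 ratio of the club and secretory sums, -0.48, turned to 1.01 without Scgb1a1, and the ciliated one of -0.46 to 0.19 without Tppp3. Both alternatives without Lyz1 were chosen after seeing the data. Of 381 values of single members under these alternatives, 368 kept their sign, and 21 of 32 members did so throughout. Epcam, among the rarest members at 6 to 20 counts per library, has an SE of 0.76. Scgb1a1, at 280 to 7009 counts, has an SE of 1.09. How far depth sets these SEs was not tested.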
